A study of Saccharomyces cerevisiae with 42 samples.

Results

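Subtelomeric genes are the genes next to the chromosome ends. Here they are the single-exon annotated genes of budding yeast (systematic names beginning with Y) whose nearest edge lies within 20 kb of the first or last annotated gene of chromosomes I to XVI. Of the 7127 annotated genes, the rule took 162 that carry a gene symbol and 159 known only by their systematic name, and 6078 other single-exon genes lay farther in. ADH4, ARN1, ARN2 and ENB1 also met the rule but were left out of both sets. All 32 chromosome ends were represented, with 5 to 15 genes each (median 10), and the outermost annotated gene began 52 to 3905 bases from the end of the chromosome sequence (median 462.5).

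RNA was sequenced in 42 libraries of the laboratory strain BY4742, labelled wild type, grown in rich glucose medium (YPD) at 30 °C. Precultures were diluted, and the 0 h sample was taken after 2 h of growth. There were 24 libraries at 0 h and 6 each at 2, 4 and 6 h, labelled as biological replicates, and the only difference between the groups that the labels give is the time in culture. The alignment names in the count files carry another treatment for 18 of the 24 libraries at 0 h, and 30C for the other 6. Comparisons with 0 h are therefore given over all 24 libraries and, where the value or call moves, also over those 6, hereafter the 30C libraries. Total counts were 5382002 to 28221337 at 0 h, 4339150 to 16139124 at 2 h, 6404650 to 22601624 at 4 h and 8377258 to 31908031 at 6 h. The dependence of counts on gene length separated 10 libraries with a flat relation (7 at 0 h, 1 at 2 h and 2 at 6 h) from 32 with a steeper one.

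Yeast telomeres end in short irregular repeats that are bound by Rap1, which recruits the Sir2, Sir3 and Sir4 proteins. These deacetylate and bind histones, and reporter genes placed next to a telomere become silent. The regions inside the repeats hold gene families that share sequence between ends, among them the Y′ element helicases, the seripauperins (PAU), the COS genes and genes for the use of alternative sugars, and several of these families are known for weak expression in rich medium.

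The left end of chromosome I in the RefSeq genome (R64, plus strand, chrI:1-120) shows what lies outside the first gene. Capitals mark the 9 matches to CCACAC, one form of the telomeric repeat.
chromosome I left end: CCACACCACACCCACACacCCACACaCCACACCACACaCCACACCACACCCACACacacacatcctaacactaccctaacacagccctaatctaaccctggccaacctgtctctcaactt

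Sequence shared between ends bears on which reads can be assigned, because reads that align to several places were not counted. Of the subtelomeric genes, 152 (47.4%) had under 80% of their 100-base windows occurring once in the genome, against 2.88% of the other single-exon genes. Below, a gene with at least 80% of such windows is called unique; 167 subtelomeric genes were. The PAU genes, which encode small cell wall mannoproteins, show the extent of the sharing. The first 60 coding bases of 6 of them are given 5′ to 3′ in coding sense, with capitals where a base differs from PAU8.
PAU8 (chrI:2110-2169, minus strand): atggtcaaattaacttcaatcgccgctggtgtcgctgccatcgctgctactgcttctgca
PAU3 (chrIII:307801-307860, plus strand): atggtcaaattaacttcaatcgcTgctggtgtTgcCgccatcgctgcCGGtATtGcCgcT
PAU1 (chrX:9079-9138, minus strand): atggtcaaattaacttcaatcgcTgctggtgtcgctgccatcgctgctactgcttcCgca
PAU14 (chrIX:9096-9155, minus strand): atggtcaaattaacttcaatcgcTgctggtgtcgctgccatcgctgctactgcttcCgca
PAU18 (chrXII:13386-13445, minus strand): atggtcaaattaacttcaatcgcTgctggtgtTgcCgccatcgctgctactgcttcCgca
PAU6 (chrXIV:781918-781977, plus strand): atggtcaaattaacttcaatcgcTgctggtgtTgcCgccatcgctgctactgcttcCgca
PAU1 and PAU14 differ from PAU8 at the same 2 positions, and PAU18 and PAU6 at the same 4, while PAU3 differs at 11. Over the whole gene, the 11 PAU genes of PAU8's length were 94.8 to 97.8% identical to it. Of 19 subtelomeric PAU genes, 7 had no window of their own, PAU1, PAU14, PAU18 and PAU6 among them.

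The subtelomeric genes also differed from the rest in what is known of them. Their median length was 621 bases, against 1128 bases for the other single-exon genes. The 159 without a symbol were 49.5%, against 20.2% of the others, and 74 had no entry in the RefSeq gene table.

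More than 50% of subtelomeric genes gave next to no counts at any time. Expression is given as CPM, the counts of a gene scaled to 1000000 assigned reads of its library, and a gene is called silent at a time when its median over that time's libraries was under 1 CPM. There were 172, 168, 171 and 170 silent subtelomeric genes at 0, 2, 4 and 6 h (53.6, 52.3, 53.3 and 53.0%). In a bulk culture, few cells with a transcript and little of it per cell cannot be told apart. Of the other single-exon genes, 12.1, 11.4, 11.4 and 11.3% were silent. In single libraries the share of subtelomeric genes under 1 CPM was 49.8 to 54.2% at 6 h and 51.4 to 56.4% at 0 h. It exceeded the share among the other genes in all 42 libraries, by 39.1 to 43.7 percentage points. With the 30C libraries alone, 54.5% of subtelomeric genes and 12.0% of the others were silent at 0 h. Libraries with a flat length relation had 53.0 to 56.4% silent at 0 h, and those with a steeper one 51.4 to 55.8%, so the ranges overlapped.

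Sequence uniqueness and annotation moved with the silent share. Among genes under 80% unique, 119 of 152 subtelomeric genes (78.3%) and 89 of 175 others (50.9%) were silent at 0 h. Among unique genes the shares were 30.5% (51 of 167) and 10.4%. Within the unique genes that carry a symbol, 9 of 91 subtelomeric genes (9.89%) and 1.71% of the others were silent. Within the unique genes without a symbol, the shares were 55.3% (42 of 76) and 49.6%. Of the 74 subtelomeric genes with no RefSeq entry, 67 (90.5%) were silent. How much of the difference each of these properties carries was not tested, and a silent gene under 80% unique may have had reads that were not assigned.

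No count in any of the 42 libraries was recorded for 22 subtelomeric genes, 21 of which were under 80% unique, and for 74 other genes. The silent genes with a symbol included the silent mating-type copies HMLALPHA1 and HMLALPHA2, which encode the α mating regulators and have no unique window because the same sequence stands at the mating-type locus. They also included the sorbitol dehydrogenases SOR1 and SOR2, the formate dehydrogenases FDH1 and FDH2, and the enolase-related ERR1, ERR2 and ERR3. YFR057W, a gene known to be silenced through Sir2, is the outermost gene of the right end of chromosome VI and fully unique. Its CPM was 0 to 0.225 (median 0) at 6 h and 0 to 0.261 (median 0) at 0 h. ECM34 and TYC1 were likewise fully unique and silent. ECM34 had 0 to 0.634 CPM at 6 h and 0 to 1.32 CPM at 0 h, and its 6 h values lay inside the 0 h range.

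Of all subtelomeric genes, 162 were silent at every time, 144 at none and 15 at some. By 6 h, 7 genes silent at 0 h had passed 1 CPM, among them COS3, the sulfate permease gene SUL1 and THI12 of thiamine synthesis, and 5 had gone below it, among them MCH2 and MPH3. SUL1 had a median of 1.41 CPM at 6 h and 0.892 CPM at 0 h, and MPH3 had medians of 0.682 and 1.00 CPM. YHR214W, a predicted cell surface protein, had the largest difference in median among these 12, with 0.933 CPM at 6 h and 2.93 CPM at 0 h.

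**Figure D1:**
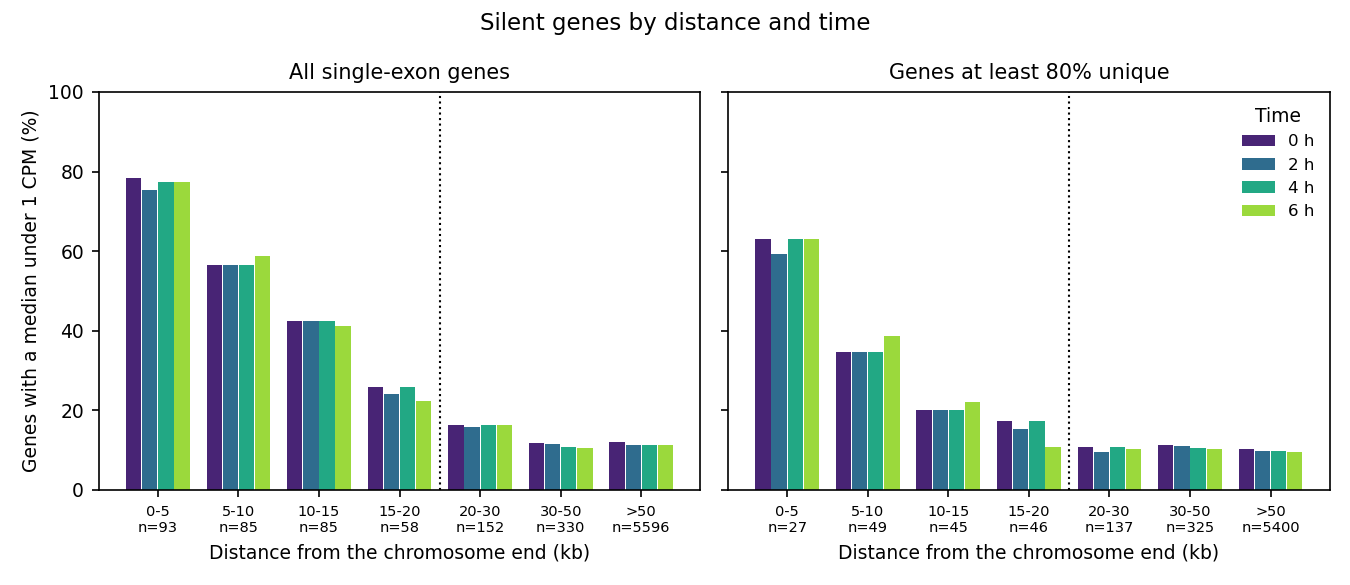
Percentage of single-exon genes silent (median under 1 CPM) at 0, 2, 4 and 6 h, by distance from the outermost annotated gene in kb, for all genes (left) and unique genes (right), with the 20 kb limit dotted and the number of genes under each step. At 0 h, 78.5% of all genes and 63.0% of unique genes within 5 kb were silent, against 12.0% and 10.4% beyond 50 kb.

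The level of transcripts was higher with distance from the end. Levels are compared between genes as CPM per kilobase of gene (CPM per kb). At 0 h the median was 0.176 CPM per kb for the 93 genes within 5 kb of an end, 0.884 for the 85 genes at 5 to 10 kb, 2.48 for the 85 genes at 10 to 15 kb and 14.2 for the 58 genes at 15 to 20 kb. It was 19.1 at 20 to 30 kb, 36.4 at 30 to 50 kb and 41.1 CPM per kb beyond 50 kb. The silent share over the same steps was 78.5, 56.5, 42.4, 25.9, 16.4, 11.8 and 12.0%. Between libraries at 0 h, the median of the outermost 5 kb was at most 0.195 CPM per kb and that of 15 to 20 kb was 9.45 to 17.7 CPM per kb, so these ranges did not overlap.

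Among unique genes the outer steps stood higher and the order by distance was the same. The medians at 0 h were 0.698, 3.98, 15.1 and 20.7 CPM per kb for the 27, 49, 45 and 46 unique genes of the first 4 steps, and 42.4 CPM per kb beyond 50 kb. For unique genes with a symbol the order within 20 kb was less regular. Their medians were 16.9 CPM per kb within 5 kb (9 genes), 9.41 at 5 to 10 kb (21), 18.7 at 10 to 15 kb (29) and 30.8 at 15 to 20 kb (32). Across all subtelomeric genes, Spearman's correlation of distance with level was 0.46 at 0 h and 0.426 at 6 h, and 0.419 and 0.391 across unique genes. These are descriptions across genes, which share ends, families and libraries.

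**Figure D2:**
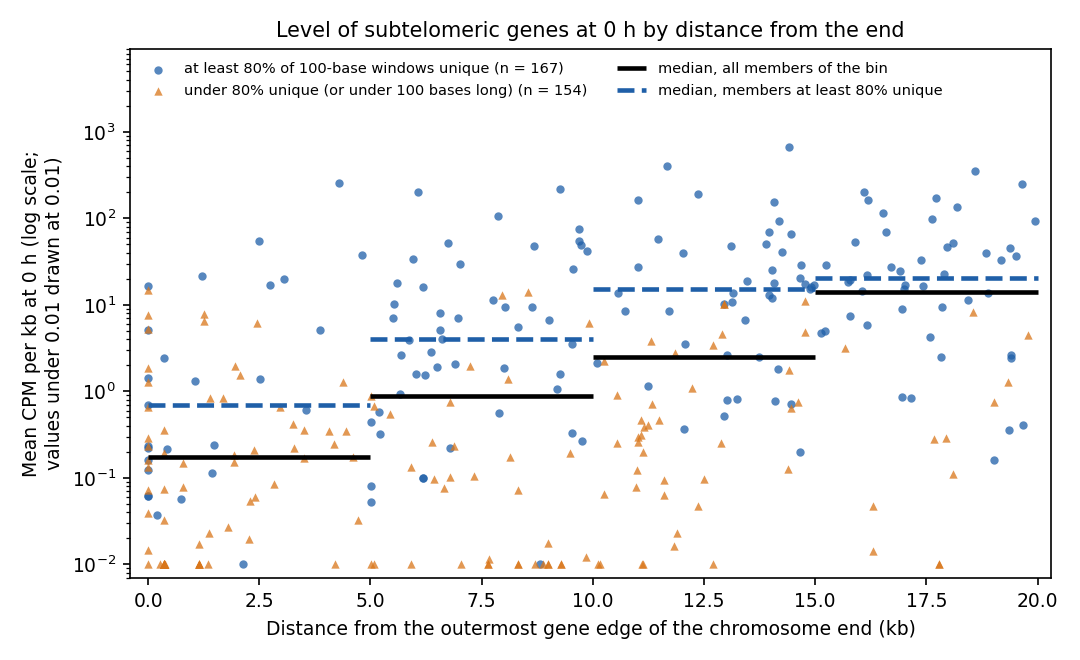
Level of each subtelomeric gene at 0 h (mean CPM per kb, log axis, values under 0.01 drawn at 0.01) against distance from the outermost annotated gene in kb, with unique genes as circles, the others as triangles, and the medians of all genes (solid) and of unique genes (dashed) in each step. The solid median is 0.176 CPM per kb within 5 kb and 14.2 at 15 to 20 kb, and the dashed one 0.698 and 20.7.

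At 6 h the medians of the first 4 steps were 0.201, 1.08, 3.72 and 12.7 CPM per kb, and that beyond 50 kb was 48.2. With the 30C libraries alone, the 0 h medians of the first 4 steps were 0.162, 0.974, 2.41 and 14.4 CPM per kb.

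The ends differed among themselves. The silent share at 0 h was lowest at the right end of chromosome XI (20.0%, 1 of 5 genes) and highest at the left end of chromosome IX (88.9%, 8 of 9), with a median of 53.9%. It was over 50% at 17 of the 32 ends, and no end was silent throughout or without a silent gene. The right end of chromosome VI, with no gene under 80% unique, had 2 of 9 genes silent and a median of 65.3 CPM per kb. In contrast, the left end of chromosome X, with all 8 genes under 80% unique, had 6 silent and a median of 0.0326 CPM per kb. Other ends did not follow this order. The left end of chromosome I, with 1 of 9 genes under 80% unique, had 7 silent and a median of 0.269 CPM per kb. The right end of chromosome X, with 7 of 9 genes under 80% unique, had 4 silent.

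**Figure D3:**
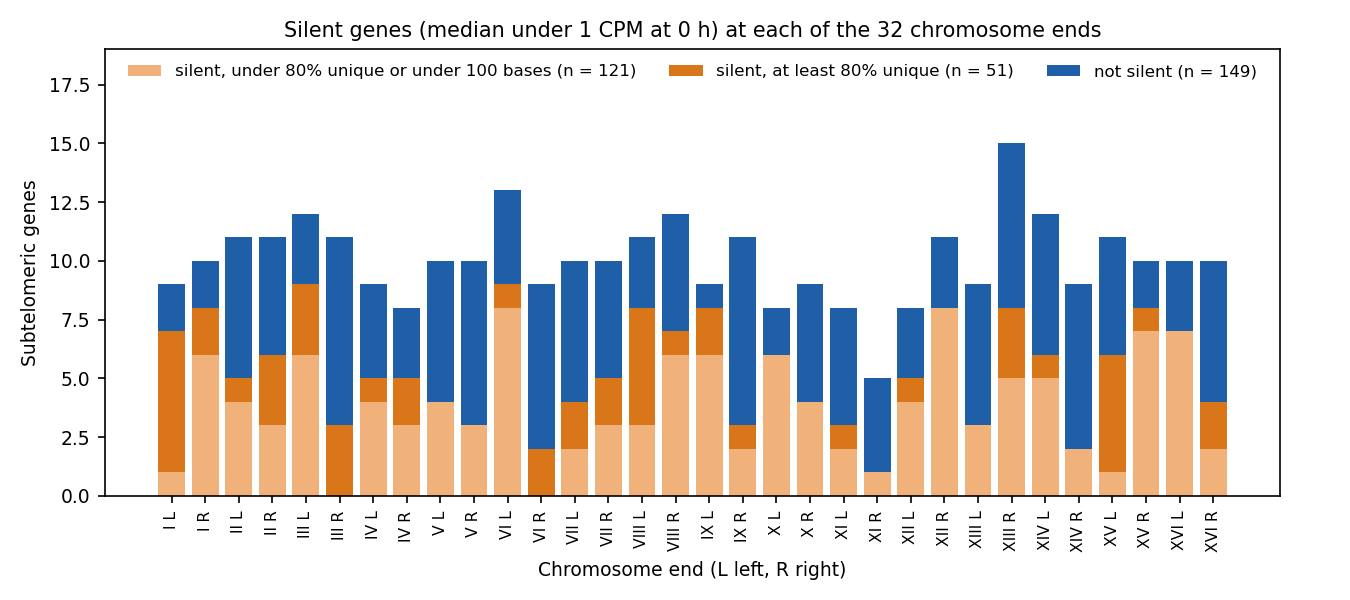
Number of subtelomeric genes at each of the 32 chromosome ends at 0 h, split into silent genes under 80% unique or under 100 bases long, silent unique genes (51) and genes not silent (149). Silent genes are present at every end and make up 20.0 to 88.9% of its genes.

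The 6 genes with the highest level per length were CHA1, ADH6, ERG13, IRC7, PRE4 and FET4. CHA1, a serine and threonine deaminase, had 665 ± 71 CPM per kb at 0 h (SD, n = 24), the NADPH-dependent alcohol dehydrogenase ADH6 399 ± 42, and ERG13, which makes hydroxymethylglutaryl-CoA for sterol synthesis, 348 ± 39.3. IRC7, a cysteine conjugate lyase, had 254 ± 38.7, the proteasome subunit gene PRE4 252 ± 46 and the low-affinity iron transporter gene FET4 217 ± 48.4 CPM per kb. The spreads of ADH6 and ERG13 overlapped, as did those of IRC7, PRE4 and FET4. All 6 were unique, and IRC7 lay only 4290 bases from the outermost gene.

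Changes over time were tested with edgeR's quasi-likelihood test on genes with a mean of at least 1 CPM, with Benjamini-Hochberg adjustment over 5918 genes and a limit of 0.05. This filter passed 151 subtelomeric genes (47.0%) and 88.8% of the other single-exon genes, so the changes described here are those of the expressed minority, 117 of them unique. Log2 changes are of the later time over 0 h.

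At 2 h almost nothing passed the test. Only YNR071C, a putative aldose 1-epimerase, was called among the subtelomeric genes, as higher (0.0845% of all genes tested were called higher and 0.0507% lower), and none was called lower. At an unadjusted p under 0.05 there were 22 of the 151 subtelomeric genes tested, and 588 of all 5918 genes tested. DESeq2 called 2 subtelomeric genes higher and 1 lower, where it called 0.287% of all genes tested higher and 0.186% lower. YNR071C had 5.15 to 9.91 CPM (median 6.46) at 2 h and 1.96 to 5.94 CPM (median 3.60) at 0 h, a log2 change of 0.85 (edgeR adjusted p = 0.0116). The ranges overlapped. The adjusted p was 1.0 against the 30C libraries, 0.112 without 2 h replicate 4 and 0.0679 without 2 h replicate 5.

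At 4 h, 22 subtelomeric genes were called higher and 21 lower, or 14.6% and 13.9% of the 151 tested, where 17.2% and 15.8% of all genes tested were called higher and lower. At 6 h, 33 were higher and 35 lower, or 21.9% and 23.2%, where 25.6% and 18.7% of all genes tested were called. Scaling by library size alone gave 41 higher and 28 lower at 6 h, and 32 and 14 at 4 h. Of all genes tested it called 31.2% higher and 12.8% lower at 6 h, and 21.3% and 9.55% at 4 h. Under that scaling all genes tested had a median of 0.12 (4 h) and 0.14 (6 h) on the log2 scale, against 0.01 and 0.03 with TMM. Against the 30C libraries, 19 of the 33 and 29 of the 35 calls at 6 h remained, and 7 of the 22 and 7 of the 21 at 4 h, all in the same direction. Over all genes tested, 15.3% and 11.2% were then called higher and lower at 6 h, and 4.17% and 2.16% at 4 h. The median log2 change of the 151 genes was 0.07, 0.06 and 0.02 at 2, 4 and 6 h, and that of all genes −0.01, 0.01 and 0.03.

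Differences of more than 2-fold at 6 h, called or not, were seen in 25 subtelomeric genes (16.6%), against 7.74% of all genes tested. Without subtelomeric genes that overlap another gene on their strand, they were seen in 21 of 143 (14.7%). These shares were not matched for expression level. The variation between 0 h libraries was also wider: among genes of 5 to 50 CPM the median coefficient of variation was 29.0% for 73 subtelomeric genes and 22.8% for 1839 others. By distance, calls at 6 h were 7 higher and 5 lower of 21 tested within 5 kb, and 5 and 4 of 37 at 5 to 10 kb. They were 11 and 11 of 49 at 10 to 15 kb, and 10 and 15 of 44 at 15 to 20 kb. Among single-exon genes farther in, they were 34 and 15 of 128 at 20 to 30 kb and 1344 and 918 of 4973 beyond 50 kb. Over all genes tested, 25.6% were higher and 18.7% lower. Both directions were found at 13 ends, and 5 ends had no call.

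**Figure D4:**
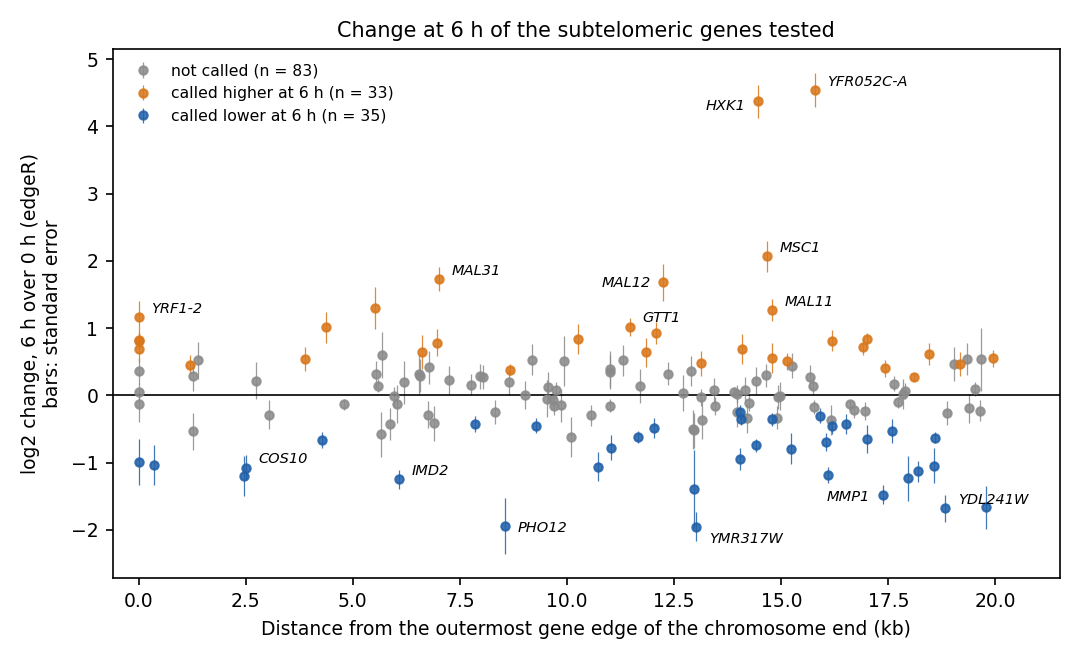
Log2 change at 6 h over 0 h (edgeR, TMM) of each of the 151 subtelomeric genes tested, with its standard error as a bar, against distance from the outermost annotated gene in kb, coloured by call. Called genes of both directions stand in each 5 kb step, and HXK1 and the overlapping YFR052C-A lie far above the rest.

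The largest change of a gene with a symbol belonged to HXK1 (YFR053C, chromosome VI, 253592 to 255049, minus strand), which encodes hexokinase 1, a sugar kinase whose gene is known to be repressed by glucose. Its CPM was 32.8 to 188 (median 83.5) at 0 h, 90.8 to 336 (median 124) at 2 h, 444 to 1187 (median 598) at 4 h and 1011 to 2984 (median 2377) at 6 h. All 6 libraries at 6 h were above all 24 at 0 h. The log2 change was 2.74 ± 0.25 (SE) at 4 h (edgeR adjusted p = 6.21e-11) and 4.37 ± 0.24 at 6 h (2.07e-18), and 4.19 at 6 h against the 30C libraries (9.32e-08). HXK1 alone made a visible part of the counts of the region. The subtelomeric genes together held 0.785 to 1.11% (median 0.922) of all counts at 6 h and 0.626 to 0.897% (median 0.811) at 0 h. Without HXK1 the shares were 0.621 to 0.809% (median 0.716) at 6 h and 0.611 to 0.89% (median 0.8) at 0 h.

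YFR052C-A, an entry without a symbol or a RefSeq counterpart, had the largest log2 change at 6 h, 4.54 ± 0.25 (edgeR adjusted p = 1.73e-18). It had 22.8 to 94.6 CPM at 6 h and 0.692 to 5.49 CPM at 0 h. However, it overlaps HXK1 on the same strand over 143 of its 306 bases, and its CPM was 0.808 to 3.98% of HXK1's in every library. Its own transcription and HXK1's cannot be told apart from these counts.

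Upstream sequences of 3 genes that were higher at 6 h are shown, 250 bases before the start codon, 5′ to 3′ in coding sense. HXK1 had the largest change among genes with a symbol, and MSC1, a nuclear envelope protein gene with a part in DNA repair, and GTT1, a glutathione transferase gene, hold AGGGG. This is the stress response element, which the activators Msn2 and Msn4 bind, and capitals mark it on either strand (AGGGG or CCCCT).
HXK1 (chrVI:255050-255299, minus strand): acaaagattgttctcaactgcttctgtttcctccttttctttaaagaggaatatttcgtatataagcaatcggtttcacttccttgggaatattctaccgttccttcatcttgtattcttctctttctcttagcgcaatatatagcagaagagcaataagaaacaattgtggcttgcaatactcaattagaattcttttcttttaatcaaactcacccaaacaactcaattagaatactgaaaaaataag
MSC1 (chrXIII:16677-16926, minus strand): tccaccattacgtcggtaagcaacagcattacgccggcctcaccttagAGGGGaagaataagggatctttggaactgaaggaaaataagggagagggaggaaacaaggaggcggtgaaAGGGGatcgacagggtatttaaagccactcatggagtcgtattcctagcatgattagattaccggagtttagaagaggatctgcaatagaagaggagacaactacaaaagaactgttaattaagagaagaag
GTT1 (chrIX:424514-424763, minus strand): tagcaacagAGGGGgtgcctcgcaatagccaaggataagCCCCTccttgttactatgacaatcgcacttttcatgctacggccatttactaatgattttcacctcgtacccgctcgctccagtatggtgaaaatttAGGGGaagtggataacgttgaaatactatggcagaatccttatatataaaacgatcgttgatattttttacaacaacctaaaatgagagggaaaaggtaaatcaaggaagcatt
GTT1 holds 3 matches, MSC1 holds 2, at 132 and 202 bases before the start codon, and HXK1 holds none in this window. Over windows of the same length, 18.4% of all single-exon genes, 14.3% of the subtelomeric genes, 7 of the 33 higher at 6 h (21.2%) and 3 of the 35 lower at 6 h (8.57%) held a match. Of all tested single-exon genes higher at 6 h, 27.9% did. A match is a run of letters and not a measured site.

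MSC1 had 84.2 to 393 CPM (median 187) at 6 h and 26.9 to 80.2 CPM (median 40.4) at 0 h, with no overlap. Its log2 change was 2.07 ± 0.23 at 6 h (edgeR adjusted p = 7.57e-10) and 1.52 at 4 h (5.58e-06). GTT1 had 61.8 to 112 CPM (median 90.9) at 6 h and 31.6 to 58.1 CPM (median 37.8) at 0 h, also without overlap, and a log2 change of 1.02 ± 0.13 (3.76e-08). The aryl-alcohol dehydrogenase-like AAD genes are a family of reductases whose natural substrates are uncertain. Of 6 subtelomeric AAD genes, 5 were tested and 2 were higher at 6 h, where 25.6% of all genes tested were higher. AAD10 had 21.8 to 27.6 CPM at 6 h and 9.44 to 21.6 CPM at 0 h (log2 change 0.83, edgeR adjusted p = 4.40e-09). AAD3 changed by 0.46 (0.00584), which was 0.178 as an adjusted p against the 30C libraries.

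Both maltose transporter genes and both maltase genes that could be tested were higher at 6 h. Of the 10 subtelomeric genes named MAL, MPH or IMA, which serve the uptake and cleavage of maltose and related sugars, 6 were tested, 4 were higher and none was lower, where 25.6% of all genes tested were higher. These 4 are the transporter genes MAL31 and MAL11 and the maltase genes MAL32 and MAL12, at the right ends of chromosomes II and VII. MAL31 had 149 to 331 CPM (median 168) at 6 h and 25.8 to 102 CPM (median 50.1) at 0 h, and all 6 libraries at 6 h lay above all at 0 h. Its log2 change was 1.40 at 4 h (edgeR adjusted p = 1.71e-07) and 1.73 ± 0.18 at 6 h (1.17e-10). MAL11 had 63.9 to 141.1 CPM (median 73.3) at 6 h and 14.2 to 50.9 CPM (median 31.4) at 0 h, a log2 change of 1.27 ± 0.16 (2.19e-08).

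The maltase genes were far lower in counts. MAL12 had 3.84 to 12.6 CPM (median 5.38) at 6 h and 0.713 to 4.27 CPM (median 1.68) at 0 h, a log2 change of 1.68 ± 0.27 (edgeR adjusted p = 2.56e-06). MAL32 had 3.53 to 7.86 CPM (median 4.17) at 6 h and 0.713 to 4.91 CPM (median 1.93) at 0 h, a log2 change of 1.01 ± 0.23 (0.00039). Against the 30C libraries its change was 0.81 with an adjusted p of 0.0504. The coding sequences of MAL12 and MAL32 differ at 8 of 1755 positions, and 33.4% of the windows of each were unique. Coding positions 211 to 270 hold 3 of these, in capitals.
MAL12 (chrVII:1076809-1076868, plus strand): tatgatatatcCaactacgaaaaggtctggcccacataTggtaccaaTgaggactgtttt
MAL32 (chrII:805561-805620, plus strand): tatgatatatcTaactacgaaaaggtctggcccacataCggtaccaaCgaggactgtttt
MAL13 and MAL33 of the same loci, which belong to the maltose activator family, had log2 changes of −0.26 (edgeR adjusted p = 0.222) and 0.12 (0.686) and were not called. Whether they act as regulators in this strain was not examined. Of the 5 subtelomeric hexose transporter (HXT) genes, 2 were tested and neither was called. HXT17 had a log2 change of 0.53 (0.0592) and HXT9 of 0.47 (0.122).

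**Figure D5:**
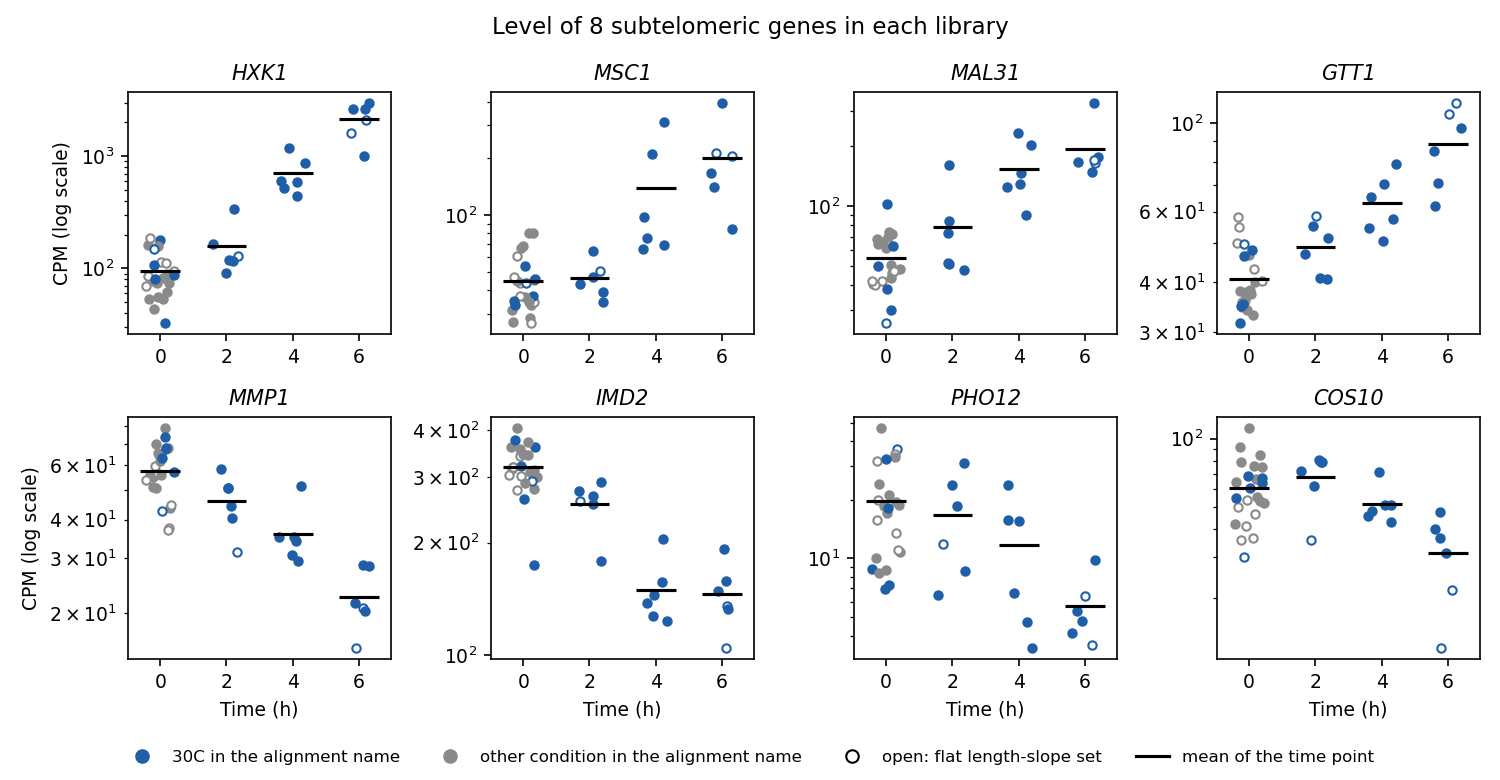
CPM per library (log axis) against time in h for HXK1, MSC1, MAL31, GTT1, MMP1, IMD2, PHO12 and COS10, with a bar at the mean of each time. Each point is 1 library, blue where the alignment name carries 30C, grey where it carries another condition, and open where the length relation is flat, and the 6 h libraries of HXK1, MSC1, MAL31 and GTT1 lie above, and those of MMP1 below, all 0 h libraries.

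PHO12, PHO11 and PHO89 were lower at 6 h than over all 24 libraries at 0 h. PHO12 and PHO11 encode secreted acid phosphatases and PHO89 a sodium-phosphate cotransporter. PHO12 had 3.56 to 9.77 CPM (median 5.08) at 6 h and 6.92 to 46.8 CPM (median 18.4) at 0 h, and its log2 change was −1.94 ± 0.41 (edgeR adjusted p = 0.000173). PHO11 had 2.42 to 5.84 CPM (median 3.77) at 6 h and 3.24 to 22.1 CPM (median 9.29) at 0 h, with a log2 change of −1.20 ± 0.30 (0.00119). The ranges of both genes overlapped. PHO89 was the most variable, with 1.87 to 13.7 CPM at 6 h and 1.32 to 50.4 CPM at 0 h, and its log2 change of −1.39 ± 0.58 only just passed (0.0487). It was 0.209 as an adjusted p against the 30C libraries.

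PHO12 and PHO11 are nearly the same gene, at the right ends of chromosomes VIII and I. They differ at 4 of 1404 coding positions and 24.8% of their windows were unique. Coding positions 1231 to 1290 hold 2 of the differences, in capitals.
PHO12 (chrVIII:553329-553388, plus strand): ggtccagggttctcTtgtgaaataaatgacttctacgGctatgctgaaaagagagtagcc
PHO11 (chrI:226690-226749, plus strand): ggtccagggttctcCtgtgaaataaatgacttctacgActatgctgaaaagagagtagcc

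MMP1, MHT1 and IMD2 were lower at 6 h. MMP1 encodes the S-methylmethionine permease, and its neighbour MHT1 the methyltransferase that uses this compound to make methionine. MMP1 had 15.4 to 28.6 CPM (median 21.1) at 6 h and 37.1 to 79.1 CPM (median 56.8) at 0 h, with all 6 libraries below all at 0 h. Its log2 change was −0.80 at 4 h (edgeR adjusted p = 1.07e-05) and −1.47 ± 0.14 at 6 h (5.39e-12), and −1.60 at 6 h against the 30C libraries (7.82e-08). MHT1 changed by −0.69 ± 0.13 at 6 h (4.66e-05), with 7.01 to 11.6 CPM at 6 h and 9.12 to 23.5 CPM at 0 h. IMD2 encodes inosine monophosphate dehydrogenase of guanine nucleotide synthesis. It had 104 to 192 CPM (median 142) at 6 h and 174 to 405 CPM (median 317) at 0 h. Its log2 change was already −1.21 at 4 h (9.52e-09) and was −1.25 ± 0.14 at 6 h (6.67e-10).

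DLD3, a cytosolic enzyme of D-lactate and 2-hydroxyglutarate metabolism, had 107 to 275 CPM (median 122) at 6 h and 220 to 463 CPM (median 291) at 0 h, a log2 change of −1.18 ± 0.12 (edgeR adjusted p = 7.50e-11). One library at 6 h, replicate 3, had 275 CPM, and the other 5 had at most 138 CPM, all below 0 h. Of the 6 genes with the highest level per length at 0 h, 5 were lower at 6 h, where 18.7% of all genes tested were lower. These 6 were chosen by the same 0 h values that the change is measured from, so the count says nothing about genes of high level in general. CHA1 changed by −0.74 (2.50e-08), IRC7 by −0.66 (7.81e-06), ERG13 by −0.63 (1.14e-08), ADH6 by −0.62 (5.81e-07) and FET4 by −0.45 (0.00111). Against the 30C libraries FET4 changed by −0.37 with an adjusted p of 0.0537, and the other 4 calls held. PRE4 had a log2 change of −0.23 (0.231).

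COS genes encode endosomal membrane proteins that promote the turnover of proteins from the cell surface. Of 11 subtelomeric COS genes, 9 were tested, 4 were lower at 6 h and none was higher, where 18.7% of all genes tested were lower and 25.6% higher. COS10 had 12.0 to 47.6 CPM (median 33.8) at 6 h and 30.1 to 111 CPM (median 58.1) at 0 h, a log2 change of −1.07 ± 0.19 (edgeR adjusted p = 8.75e-06). COS12 changed by −0.99 (0.0179), COS6 by −0.43 (0.00274) and COS9 by −0.25 (0.0464), the last of which was 0.398 as an adjusted p against the 30C libraries. All 4 were unique. In contrast, COS7, COS8, COS1 and COS5 were among the COS genes tested and not called. Their log2 changes were −0.13 (0.711), −0.01 (0.946), 0.28 (0.218) and 0.28 (0.291), in this order. The median over the 9 tested was −0.13. COS2 and COS3 are identical over 1140 bases and had no window of their own, yet held 167 and 589 counts over the 42 libraries.

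The helicase genes of the Y′ elements, repeats that abut the telomere at many ends, included genes that were higher at 6 h. RefSeq annotates 9 subtelomeric single-exon genes as Y′ element genes, a group chosen after the values were seen, and 7 of these are the outermost gene of their end. Of the 5 that were tested, 4 were higher at 6 h, where 25.6% of all genes tested were. YEL077C had 31.9 to 46.5 CPM (median 38.5) at 6 h and 12.6 to 28.0 CPM (median 20.4) at 0 h, without overlap, and a log2 change of 0.82 ± 0.11 (edgeR adjusted p = 5.32e-08). YBL113C had 24.4 to 46.7 CPM at 6 h and 12.2 to 24.4 CPM at 0 h, with a log2 change of 0.81 ± 0.12 (3.71e-07). YRF1-2 changed by 1.16 ± 0.24 (0.000118) and YPR204W by 0.69 ± 0.20 (0.00366), and YFL066C had a log2 change of 0.52 (0.125). Against the 30C libraries the changes of these 5 genes were 0.61, 0.57, 0.99, 0.60 and 0.25 in the same order, with the first 3 passing the test.

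Summed over the 9 Y′ genes, CPM was 31.9 to 59.4 (median 44.6) at 0 h, 41.1 to 70.8 (median 61.7) at 2 h, 58.7 to 75.4 (median 66.5) at 4 h and 66.9 to 102 (median 83.5) at 6 h. All sums at 6 h were above all sums at 0 h. However, YEL077C and YBL113C made up 83.9 to 86.1% of the sum at 6 h and 77 to 88.3% at 0 h, so it mostly restates these genes. The other 7 genes together had 9.32 to 16.1 CPM (median 12.8) at 6 h and 5.13 to 11.4 CPM (median 6.87) at 0 h, and these ranges overlapped. Between 0 and 38.8% of the windows of the 9 genes were unique. Where in the genes the counted reads lie was not examined, and reads that align to several copies were not counted.

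The PAU genes, whose shared sequence is shown above, gave little. Of 19, 17 were silent at 0 h, 3 had no count in any library and only PAU12 and PAU6 could be tested. PAU12 had a median of 2.08 CPM at 6 h and 2.15 CPM at 0 h (log2 change 0.51, edgeR adjusted p = 0.277), and PAU6 had medians of 1.95 and 2.17 CPM (−0.54, 0.110). Even PAU3 and PAU8, which are unique, had medians of 0.391 and 0.153 CPM at 6 h and 0.615 and 0 CPM at 0 h. THI genes, of thiamine synthesis, numbered 4, with 2 tested and none called, and the single FLO gene, a cell wall flocculin, was tested and not called.

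Of the 159 genes without a symbol, 43 could be tested, with 13 higher and 9 lower at 6 h. These shares, 30.2% and 20.9%, were near those of all genes tested (25.6% and 18.7%). YMR317W, of unknown function, had 0.955 to 3.30 CPM at 6 h and 4.61 to 15.6 CPM at 0 h, without overlap, and a log2 change of −1.95 ± 0.22 (edgeR adjusted p = 1.31e-09). YDL241W, also uncharacterised, had 3.82 to 6.61 CPM at 6 h and 8.39 to 25.6 CPM at 0 h (−1.68 ± 0.20, 5.13e-09), again without overlap. YHR214W changed by −1.66 (4.54e-05), with 19.5% of its windows unique. Among those that were higher, YNR071C had 4.43 to 12.0 CPM at 6 h and 1.96 to 5.94 CPM at 0 h (0.93 ± 0.17, 1.36e-05). YBL109W changed by 1.30 ± 0.31 (0.000782), with 2.92 to 13.9 CPM at 6 h and 0.481 to 5.31 CPM at 0 h.

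Some calls at 4 h were not made at 6 h. YPS5, which resembles aspartic proteases, changed by 1.22 at 4 h (edgeR adjusted p = 0.00438) and had a log2 change of 0.60 at 6 h (0.154). YER187W, uncharacterised, changed by −0.88 at 4 h (0.0103) and had −0.15 at 6 h (0.66). Neither passed against the 30C libraries, with adjusted p of 0.203 and 0.393. At 6 h, further calls did not pass there. DIA1, linked to invasive growth, changed by −1.23 (0.0025), with −0.70 and an adjusted p of 0.0725 against the 30C libraries, and SNO3 by 0.84 (0.00234), with 0.0955. SNO3 differs from SNO2 at 2 of 669 coding positions.

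Of the tested genes, 8 were the outermost annotated gene of their end. YBL113C, YEL077C, YRF1-2, YPR204W, COS12 and COS7 are given above. The glutathione exchanger gene GEX2 and the uncharacterised YIR042C had log2 changes of 0.36 (edgeR adjusted p = 0.12) and 0.05 (0.776) at 6 h and were not called. The 3 genes just inside the limit were YMR315W, YHR214W and SUL1, at 19953, 19785 and 19665 bases. YMR315W, an oxidoreductase gene, changed by 0.55 (0.000389), with 0.47 and an adjusted p of 0.0567 against the 30C libraries, and SUL1 had a log2 change of 0.54 (0.364). Just outside were PAD1, YDR537C and PGA3, at 20081, 20250 and 20300 bases, with log2 changes at 6 h of 0.05, 0.04 and −0.94.

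Transcripts of the silencing and telomere proteins themselves differed by less than 2-fold. Of 17 genes in a list of silencing and subtelomere factors, all were tested, and 7 were higher and 1 lower at 6 h, and 5 higher at 4 h. The shares over all genes tested were 25.6% higher and 18.7% lower at 6 h and 17.2% higher at 4 h. Against the 30C libraries 2 factors were higher at 6 h (RIF1 and CYC8), 1 at 4 h (RIF1) and none was lower. RIF1, which acts in telomere length control, had 168 ± 38.8 CPM at 6 h (SD, n = 6) and 96.8 ± 20.6 CPM at 0 h (SD, n = 24), a log2 change of 0.69 ± 0.10 (edgeR adjusted p = 4.11e-07), and 0.59 against the 30C libraries (0.00335). Over all 24 libraries at 0 h, REB1 changed by 0.52 (0.00491), SIR1 by 0.43 (0.00359), YKU80 by 0.39 (0.0277), SIR4 by 0.31 (0.0287), CYC8 by 0.29 (0.00662) and TUP1 by 0.19 (0.0395), and HST1 by −0.26 (0.00363). Against the 30C libraries the adjusted p of CYC8 was 0.0379, and those of the other 6 were 0.0623 to 0.397. SIR2 and SIR3, whose proteins act in telomeric silencing with that of SIR4, were not called, with log2 changes of −0.05 (0.634) and 0.07 (0.654). Levels of the proteins were not measured here.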

How the data were processed

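The deposited values are counts of read pairs per gene and per exon that the authors made with featureCounts 2.0.3 (paired, strand setting 2, per the file headers) on the Ensembl release 106 annotation of the R64-1-1 genome, after polyA selection and stranded TruSeq libraries. STAR and StringTie are named in the submitters' processing notes with no version given. Reads that align to several places, or to several genes on 1 strand, were not assigned, which lowers counts in repeated families and overlapping genes. The counts are used as deposited, with no batch correction.

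All 84 count files of the 42 libraries were read, and gene counts were used. Gene names and notes came from the RefSeq gene table, in which 247 of the 321 genes were found, and sequences from the RefSeq genome of the same build. CPM is relative to all assigned counts. Genes with a mean of at least 1 CPM were tested in 1 edgeR 4.0.16 quasi-likelihood fit over all libraries (TMM, R 4.3.3), with Benjamini-Hochberg adjustment over 5918 genes. DESeq2 1.42.0 was an alternative, as were other scalings, filters, library sets, windows and thresholds. The code was tested on simulated data.

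The members and gene lists were chosen with earlier results of these data known. Named genes were those with the largest called changes (12 higher and 8 lower at 6 h, 5 each way at 4 h, all at 2 h), the 6 with the highest level per length, the 6 tested genes nearest to an end (8 tie as outermost genes, and YPR204W and GEX2 were added to give all), 3 on each side of the 20 kb limit, called genes of the named families and the silencing factors. Others (silent genes, genes that crossed 1 CPM, family and pathway members that were not called, MHT1 and the Y′ group) were added after their values were seen. The labels call the samples biological replicates, and the study describes cultures from single colonies and independent experiments for the growth curves, but which libraries share a culture is not given in the sources used here. No library was dropped.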

Additional observations from a re-analysis of the deposited data

Results flagged for a closer look

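In groups of 6 libraries, the highest or lowest value was tested for its gap to the nearest other library, as a share of the group's range. Over the named genes and 2 shares at 2, 4 and 6 h, 22 groups had a gap above the critical value for 6 values, where chance gives about 1 in 20.

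At 2 h, replicate 4, the library with the fewest counts of all 42 (4339150), stood apart in 6 genes. Its CPM was the highest for HXK1 (336, next 167, gap 0.691), MAL31 (161.3, next 83.7, gap 0.682), MAL32 (6.91, next 3.44, gap 0.652), YFR052C-A (10.4, next 3.94, gap 0.764) and YDR537C just outside the 20 kb limit (2.77, next 1.31, gap 0.711). It was the lowest for IMD2 (178, next 253, gap 0.671). Replicate 1 at 2 h, which has a flat length relation, was the lowest for YBL113C (15.5, next 23.2, gap 0.646), for ERG13 (450, next 527, gap 0.631) and for the share of all counts in subtelomeric genes (0.68%, next 0.83%, gap 0.779).

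At 4 h, replicate 3, the library with the fewest counts at that time (6404650), was the highest in 9 genes. These were YDR537C (3.44, next 0.885, gap 0.885), MMP1 (51.2, next 35.3, gap 0.729), YNR071C (8.28, next 5.28, gap 0.729), SUL1 (3.12, next 1.11, gap 0.728) and COS10 (71.4, next 51.2, gap 0.707). The others were MAL12 (6.87, next 3.72, gap 0.705), IRC7 (285, next 184, gap 0.688), ERG13 (548, next 454, gap 0.64) and MAL32 (7.49, next 4.66, gap 0.631).

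At 6 h, replicate 5 was the highest for MAL31 (331, next 176, gap 0.85) and MAL11 (141.1, next 80.5, gap 0.785), and replicate 3 for DLD3 (275, next 138, gap 0.816). Replicate 2, with a flat length relation, was the lowest for ERG13 (220, next 354, gap 0.652). The part that depth or the length relation has in these gaps was not tested. The calls of MAL31, MAL11, DLD3 and ERG13 at 6 h held without each of these libraries.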

How the results depend on the processing

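Of 37 named genes called at 6 h, 27 stayed called under every alternative run for them, and no named value changed sign where called. The 10 that were lost at least once were AAD3, COS6, COS9, COS12, DIA1, FET4, MAL32, PHO89, SNO3 and YMR315W. After thinning every library to 4339150 counts, the silent shares at 0, 2, 4 and 6 h were 53.3, 52.3, 52.6 and 53.0% of subtelomeric genes and 12.2, 11.4, 11.5 and 11.4% of the others. Where a count or value below moved, the cause was not tested, except that the 75-count minimum, the 10 kb window and the smaller library sets use fewer genes or samples.

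The number of subtelomeric genes called higher at 2 h (1) was 2 with DESeq2, with library size scaling and with the length relation as a covariate, 4 over libraries of the steeper length relation, and 0 with at least 75 counts in every library, within 10 kb or against the 30C libraries, with or without the series of library numbers as a block. It was 2 without 2 h replicate 1, 0 without 2 h replicate 4 or 5, and 0 to 2 over all single libraries left out. The number called lower at 2 h (0) was 1 with DESeq2 and in the steeper libraries, and 0 to 1 over single libraries left out, the 1 without 2 h replicate 1. At 4 h, 22 higher and 21 lower became 7 and 7 against the 30C libraries, 8 and 12 with the number series as a block (chosen after seeing the data) and 8 and 7 within 10 kb, and the 75-count minimum left 14 higher. At 6 h, 33 higher and 35 lower became 19 and 19 with the 75-count minimum and 12 and 9 within 10 kb, and 19 were higher against the 30C libraries. With the length relation as a covariate, 42 were higher and 43 lower at 6 h, where 32.6% and 28.1% of all genes tested were. Libraries of the steeper relation gave 32 and 45, where 29.0% and 27.8% of all genes tested were called. At 4 h the covariate gave 26 and 25 (20.0% and 17.4% of all genes tested), and the steeper libraries 29 and 29 (22.4% and 19.3%). The median log2 change at 4 h (0.055) was 0.166 with library size scaling, −0.034 with the 75-count minimum, −0.007 without a filter and −0.026 against the 30C libraries.

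Labelled replicate numbers are shared by the time points, but same-numbered libraries did not deviate together consistently. Their correlations were −0.713 to 0.721, with 18 of 36 above 0.1 (median 0.112, against 0.01 for other pairs). Over libraries numbered 1 to 6, the replicate block gave 0 genes higher at 2 h, 9 higher and 11 lower at 4 h, and 23 and 30 at 6 h. The same libraries without the block gave 0, 9 and 12, and 24 and 31. Libraries in the same run of the submitters' library numbers had 27 of 36 correlations above 0.1 (median 0.24, against −0.03 for other pairs), which no label gives as a pairing. With these runs as a block, the 30C libraries gave 23 higher and 33 lower at 6 h, against 19 and 29 without it.

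The silent share of subtelomeric genes at 0, 2, 4 and 6 h was 49.8, 48.0, 48.9 and 48.0% with a limit of 0.5 CPM, 59.8, 58.3, 58.3 and 58.3% with 2 CPM, and 10.3, 15.0, 18.1 and 11.8% for 0 counts in every library of the time. It was 30.5, 29.3, 30.5 and 30.5% for unique genes, and 55.6, 54.6 and 55.2% at 0, 2 and 4 h for genes wholly within 20 kb. For the other genes it was 9.49, 9.00, 8.93 and 8.93% with 0.5 CPM, 14.9, 14.4, 14.2 and 13.9% with 2 CPM, 1.28, 1.84, 1.73 and 1.45% for 0 counts, 10.4, 9.74, 9.79 and 9.64% for unique genes, and 16.1, 15.5, 15.6 and 15.6% over all other annotated genes. The 0 h medians by distance were 0.698, 3.98, 15.1, 20.7 and 23.2 CPM per kb for unique genes up to 30 kb. Without division by length they were 0.0873, 0.326 and 1.87 CPM up to 15 kb, and 49.4 CPM at 30 to 50 kb and 54.6 CPM beyond.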
